A study of Mus musculus with 1037 samples.

Results

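The caspases Casp2, Casp8, Casp9 and Casp6, the scaffold gene Apaf1, the death receptor gene Fas, its adaptor gene Fadd and the caspase inhibitor gene Xiap were described across sorts of mouse hair follicle cells. These 8 genes were chosen by name, with earlier results of these data known. All 8 were found by their Ensembl identifiers among the 55335 gene rows of the count table, of which 21591 are nuclear protein-coding genes. RNA had been measured by Smart-seq2, which makes a separate full-length library from each sorted cell in its own well, in skin of wild type mice at 3 stages of the hair cycle: late growth (AnaVI) and 2 steps of the regression phase (CatVI and CatVII). AnaVI cells were sorted as LOS from the lower outer root sheath, the outermost epithelial layer of the follicle, and as MOS and UOS from its upper-middle part. CatVI cells, whose titles carry postnatal day 17, came from the upper outer root sheath on 6 plates titled as PhagoHFSC or NonPhagoHFSC and as alive or apop, and CatVII cells came from the upper outer root sheath as OSalive and OSapop. By the study's methods, stem cells were gated as lacking Sca1 and markers of endothelial, melanocyte, fibroblast and immune cells and as carrying CD34 and integrin alpha 6. For catagen the study names both stem cells with high and progenitor cells with low surface CD34. Annexin V and DAPI marked apoptotic and dying cells. The labels do not define the words alive, apop, Phago or NonPhago.

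Caspases are proteases that are made as inactive precursors and carry out apoptosis. In the receptor pathway, a ligand binds Fas, the adaptor FADD joins the receptor and recruits caspase-8. In the mitochondrial pathway, cytochrome c released into the cytosol joins APAF1 in the apoptosome, which activates caspase-9, and XIAP binds and blocks active caspases. Each hair follicle loses much of its lower part by apoptosis during catagen. The study reports that a sizeable share of the stem cells also dies in late catagen, while others survive for the next hair cycle. Caspases are activated as proteins that are already present, a step that RNA levels do not show.

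Cells of 3 to 6 mice had been pooled for each stage and no animal is named, so that no sort or plate has a replicate that the labels name, and no test was made. Cells needed 2000 or more detected genes to enter, which 463 of 1035 cells in 9 of the 11 sorts had. The share that passed was 41.9% in LOS, 52.8% in MOS, 83.6% in UOS, 80.1% in OSalive and 65.2% in OSapop. On the CatVI plates they were 19 and 9 cells of the Phago alive plates 1 and 2, 15 cells of the Phago apop plate 5 and 14 cells of the NonPhago apop plate 6, and 0 of 67 and 0 of 57 cells passed on the NonPhago alive plates 3 and 4. Levels are CPM, the counts of a gene summed over the passing cells of a sort, divided by the sum for all nuclear protein-coding genes and multiplied by 1000000. The sums held between 321243 counts on plate 6 and 46938879 in OSalive, so that 1 count was worth 3.11 CPM on plate 6 and 0.0213 CPM in OSalive. The 95% intervals given are exact and cover the error of counting alone: reads were not collapsed by molecular identifiers and are no independent draws of molecules. All 7 markers fixed for the outer root sheath and bulge had counts in every sort, but Cd34, which encodes the surface protein of the gate, had counts in only 1 cell on each of the 4 CatVI plates, against 68% of OSalive and 68.5% of OSapop cells. Stage and plate cannot be told apart, because no plate number of the labels covers more than 1 stage.

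Some of the sorts came from more than 1 plate. Well labels occur more than once within UOS, OSalive and OSapop (40, 68 and 52 of them), which a single plate does not allow. In the titles of the CatVII cells, the sample numbers that follow the wells run in 2 series, each of which lists OSalive and then OSapop, and all but 13 OSalive and 2 OSapop cells could be placed in 1 of the series by the order of wells and numbers. Series 1 held 61 passing OSalive and 47 passing OSapop cells and series 2 held 57 and 45. A further 7 passing OSalive cells were in neither series and count only in the sums of the whole sort. The labels do not say whether the series are plates of the same mice, other mice or other days, so they were not used as replicates, and the split was made after the values had been seen. It bears on every CatVII result: of the 10217 genes compared in both series, 51.8% had OSapop on the same side of OSalive in both, and 22.6% of genes in OSalive and 24.9% in OSapop differed at least 2-fold between the series of the same sort. Of the 8 genes, 2 lay on the same side of 0 in both series, Casp2 and Casp6, and the series 2 interval of Casp6 includes 0. The counting intervals do not cover this spread. UOS was not split, because its numbers do not place its cells.

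Casp2 and Xiap were found in more cells than the other 6 genes in the AnaVI and CatVII sorts. Per kilobase of canonical transcript, which is the scale on which genes can be compared, the level of Casp2 in OSalive was 22.8 CPM, that of Casp6 18.5 CPM and that of Xiap 15.3 CPM. Casp8 and Casp9 followed at 7.25 and 7.03 CPM per kilobase, then Fas at 4.72, Fadd at 4.20 and Apaf1 at 3.50 CPM per kilobase. In UOS and in OSapop, Casp2, Xiap and Casp6 also took the top 3 places, with 44.4, 18.6 and 17.8 CPM per kilobase in UOS and 38.9, 15.7 and 14.3 CPM per kilobase in OSapop. Apaf1 was at the bottom in both, at 2.38 and 2.62 CPM per kilobase.

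**Figure D1:**
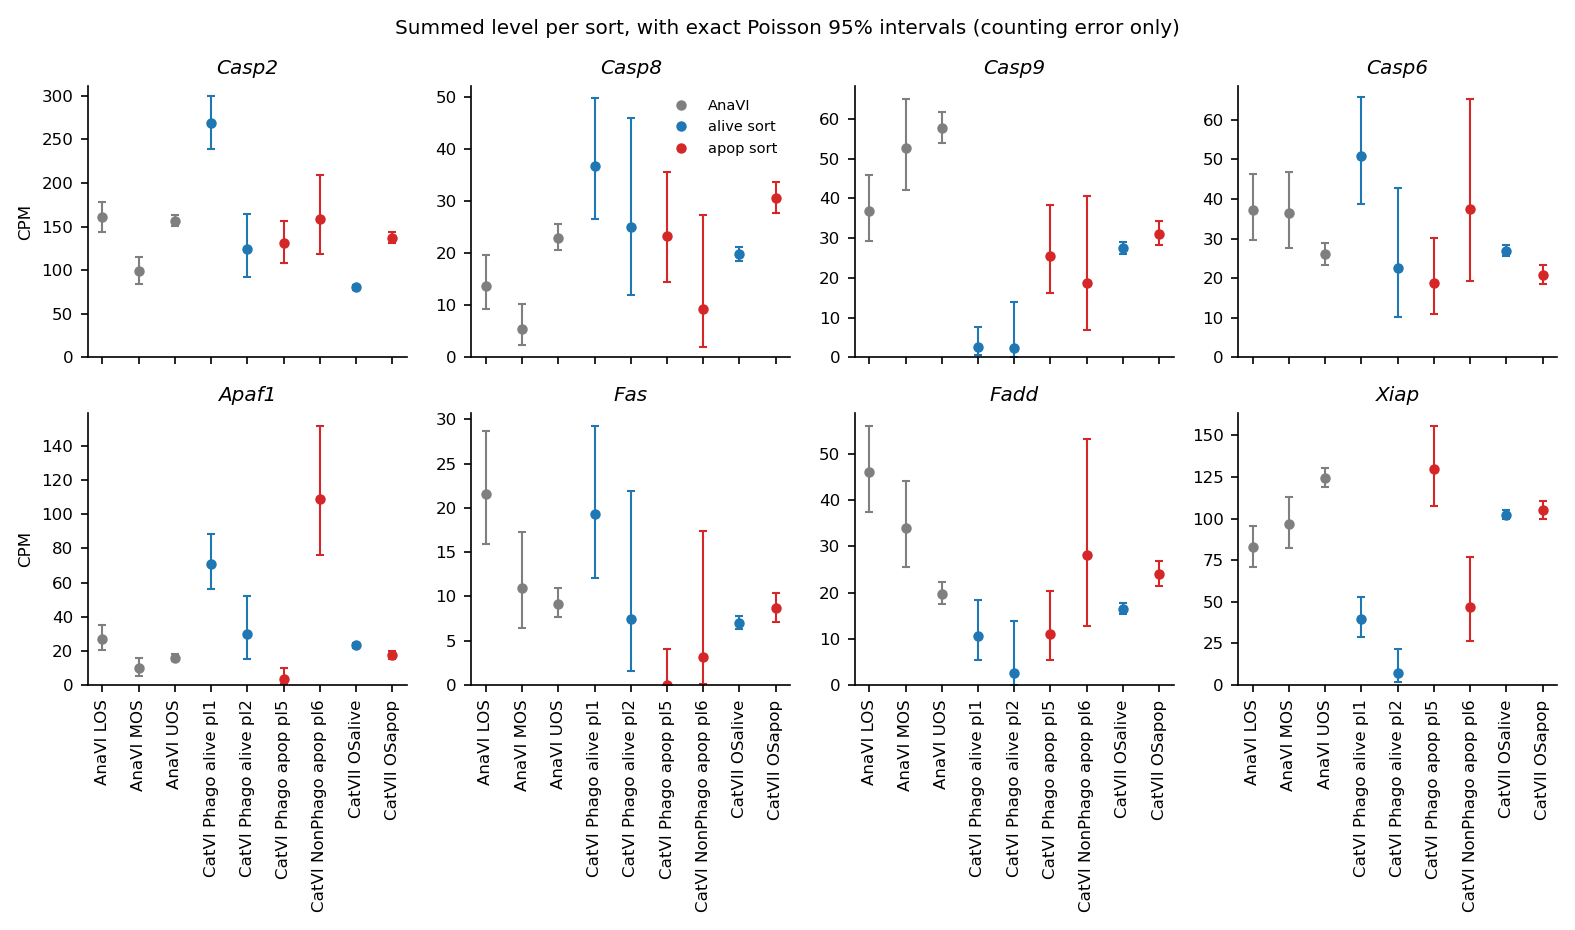
Summed level (CPM, vertical axes from 0, each with its own scale) of the 8 genes in the 9 sorts with passing cells (horizontal axis), with exact Poisson 95% intervals as bars. The CatVII sorts are summed whole. Between the 2 number series, the log2 difference of OSapop to OSalive changes its side of 0 for all genes but Casp2 and Casp6. Its interval includes 0 for Fas in series 1 and for Casp6 and Fadd in series 2. The 2 Phago alive plates stand apart from each other for Casp2, Apaf1 and Xiap.

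Casp2 encodes an initiator caspase that the PIDDosome, a complex of PIDD1 and RAIDD, can activate (chromosome 6, 42241918-42259443, plus strand, GRCm39). In AnaVI its level was 160.5 CPM in LOS, 99.3 CPM in MOS and 156.7 CPM in UOS. On the CatVI plates it was 268.3 CPM and 124.9 CPM in Phago alive plates 1 and 2, 130.8 CPM in Phago apop plate 5 and 158.8 CPM in NonPhago apop plate 6. In CatVII it was 80.3 CPM (interval 77.8 to 82.9) in OSalive and 137.2 CPM (130.996 to 143.7) in OSapop. By summed counts plate 1 was highest and OSalive lowest, each with an interval apart from that of its neighbour in the order, and OSapop lay apart from UOS, while the other neighbours overlapped. With each cell given the same weight, LOS came first at 223.4 CPM and plate 1 followed at 206.3 CPM, and OSalive stayed lowest at 82.1 CPM. The OSapop to OSalive difference was 0.77 on the log2 scale (0.69 to 0.85), a 1.71-fold higher level that was above 89.1% of the 11975 genes compared. Within series 1 it was 0.28 (0.17 to 0.39), from 136.2 CPM in OSapop and 112.4 CPM in OSalive, and within series 2 it was 1.36 (1.24 to 1.49), from 138.4 and 53.8 CPM. Casp2 was thus higher in OSapop in both series, by sizes that did not overlap, and its OSalive levels were more than 2-fold apart. The cell with the most Casp2 counts held 13.8% of them in OSapop and 11.8% in OSalive. After each cell was thinned to 10000 nuclear coding counts, 37 of 86 OSapop cells (43.02%, Clopper-Pearson interval 32.4 to 54.2%) and 39 OSalive cells (31.5%, 23.4 to 40.4%) had a count of Casp2. Without thinning the shares were 55.4% and 57.6%, at a median depth of 80816.5 counts per cell in OSapop and 355644 in OSalive. The intervals of the thinned shares overlapped, unlike those of the summed level.

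Casp8 encodes the initiator caspase of the death receptors (chromosome 1, 58834375-58886665, plus strand). Its levels were 13.8 CPM in LOS, 5.45 CPM in MOS and 23.02 CPM in UOS, of which MOS rests on 9 counts. On the CatVI plates Casp8 was at 36.8 and 24.98 CPM in Phago alive plates 1 and 2, at 23.3 CPM in Phago apop plate 5 and at 9.34 CPM, from 3 counts of 1 cell, in NonPhago apop plate 6. In CatVII it was 19.9 CPM (18.6 to 21.2) in OSalive and 30.6 CPM (27.7 to 33.8) in OSapop. In the order of all 9 sorts each neighbour overlapped with the next. The log2 difference in CatVII was 0.62 (0.45 to 0.79), but it was 1.32 (1.09 to 1.54) within series 1, where OSapop had 43.4 CPM and OSalive 17.4 CPM, and -0.41 (-0.73 to -0.11) within series 2, where they had 16.5 and 21.99 CPM. Casp8 thus had no direction that held in both series. Few cells carried the gene: 4 of 92 OSapop cells and 5 OSalive cells held at least 50% of the counts, and 1 OSapop cell held 23.8%. A count was found in 14 of 86 thinned OSapop cells (16.3%, 9.20 to 25.8%) and in 11 thinned OSalive cells (8.87%, 4.51 to 15.3%), and these shares overlap.

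Casp9 encodes the initiator caspase of the apoptosome (chromosome 4, 141520923-141546508, plus strand, where the minus-strand gene Cela2a overlaps). Its level was 36.8 CPM in LOS, 52.7 CPM in MOS and 57.7 CPM (53.8 to 61.8) in UOS. The Phago alive plates held 3 and 1 counts, or 2.63 and 2.50 CPM, the Phago apop plate 25.5 CPM from 23 counts and the NonPhago apop plate 18.7 CPM from 6 counts. In CatVII the level was 27.4 CPM (25.9 to 28.9) in OSalive and 31.2 CPM (28.2 to 34.3) in OSapop, and these intervals overlap. UOS and MOS were thus at the top and the Phago alive plates at the bottom, with each neighbour in the order overlapping with the next. The CatVII difference of 0.19 on the log2 scale (0.02 to 0.35) joined 2 opposite ones: -1.196 (-1.49 to -0.92) within series 1, from 17.2 CPM in OSapop and 39.4 CPM in OSalive, and 1.499 (1.28 to 1.72) within series 2, from 46.7 and 16.5 CPM. Casp9 was more than 2-fold lower in OSapop in one series and more than 2-fold higher in the other. A count of Casp9 was seen in 8 of 86 thinned OSapop cells (9.30%) and in 13 thinned OSalive cells (10.48%). These shares overlap.

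Casp6, which encodes an executioner caspase that cleaves nuclear lamins (chromosome 3, 129695069-129707752, plus strand, with the minus-strand gene Mcub overlapping), was at 37.2 CPM in LOS, 36.3 CPM in MOS and 25.99 CPM in UOS. The CatVI levels were 50.9 and 22.5 CPM in Phago alive plates 1 and 2, 18.8 CPM in Phago apop plate 5 and 37.4 CPM in NonPhago apop plate 6. In CatVII the level was 26.97 CPM (25.5 to 28.5) in OSalive and 20.9 CPM (18.5 to 23.5) in OSapop. Casp6 was thus lower in the apop sort of CatVII, by a log2 difference of -0.37 (-0.56 to -0.18). It was -0.65 (-0.92 to -0.38) within series 1 and -0.20 (-0.48 to 0.07) within series 2, where the interval includes 0. In the order of sorts every neighbouring pair overlapped. After thinning, 7 of 86 OSapop cells (8.14%, 3.34 to 16.1%) and 17 OSalive cells (13.7%, 8.19 to 21.04%) had a count, with overlapping intervals. The difference kept its sign in 10 of 10 alternative settings, with a range of -0.65 to -0.16.

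Apaf1 encodes the scaffold of the apoptosome (chromosome 10, 90825173-90918686, minus strand). In AnaVI it was at 27.1 CPM in LOS, 9.69 CPM in MOS and 15.8 CPM in UOS. The CatVI plates spanned the whole range, with 71.02 and 29.98 CPM in Phago alive plates 1 and 2, 3.33 CPM from 3 counts in Phago apop plate 5 and 108.95 CPM in NonPhago apop plate 6. These extremes rest on few cells: 1 of 14 cells held 91.4% of the counts on plate 6, 1 of 19 held 53.1% on plate 1, and the 3 counts of plate 5 lay in 1 of 15 cells. In CatVII the level was 23.3 CPM (21.9 to 24.7) in OSalive and 17.4 CPM (15.2 to 19.8) in OSapop. The log2 difference of -0.42 (-0.63 to -0.21) in the summed level turned to 0.38 when each cell was given the same weight, and was -0.08 after thinning. The thinned shares were 12 of 86 OSapop cells (13.95%) and 18 OSalive cells (14.5%). Within series 1 the difference was -1.65 (-2.01 to -1.31), from 10.7 CPM in OSapop and 33.7 CPM in OSalive, and within series 2 it was 0.82 (0.54 to 1.10), from 24.8 and 14.02 CPM. Apaf1 had no direction that held across these ways of counting.

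Fas encodes the receptor itself (chromosome 19, 34268001-34305173, plus strand) and was found in few cells: after thinning to 10000 counts it had a count in 1.61% of OSalive (2 cells) and 5.81% of OSapop cells (5 cells), and after thinning to 5000 counts in 4.80% and 2.17%. Its level was 21.6 CPM in LOS, 10.9 CPM in MOS and 9.18 CPM in UOS. In CatVI it was 19.3 CPM in Phago alive plate 1, 7.49 CPM in plate 2 and 3.11 CPM, from 1 count, in NonPhago apop plate 6. Phago apop plate 5 had 0 counts of Fas in 15 cells, which allows a share of cells with a count of up to 20% by the limit of 3 of 15 cells and of up to 21.8% by the Clopper-Pearson bound, and the counts of plates 1, 2 and 6 each came from 1 cell. In CatVII the level was 7.03 CPM (6.29 to 7.83) in OSalive and 8.66 CPM (7.15 to 10.4) in OSapop, a log2 difference of 0.30 whose interval (-0.02 to 0.61) includes 0. Fas was found in 16 OSalive and 13 OSapop cells at full depth, or 12.8% and 14.1%, and the highest cell held 27.9% and 27.8% of the counts. Within series 1 the difference was -0.07 (-0.50 to 0.35) and within series 2 it was 0.60 (0.10 to 1.07). A difference of Fas between the whole CatVII sorts was not detectable at this depth. In LOS and MOS the highest cell held 72.3% and 88.9% of the Fas counts, and all neighbours in the order of the sorts overlapped.

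Fadd encodes the adaptor that links death receptors to caspase-8 (chromosome 7, 144131055-144136211, minus strand, where the antisense gene Faddos overlaps and unstranded reads of both cannot be told apart). Its level was 45.99 CPM (37.4 to 55.9) in LOS, 33.9 CPM (25.6 to 44.04) in MOS and 19.8 CPM (17.5 to 22.2) in UOS. In CatVI it was 10.52 and 2.50 CPM in Phago alive plates 1 and 2, 11.1 CPM in Phago apop plate 5 and 28.02 CPM in NonPhago apop plate 6, from 12, 1, 10 and 9 counts. In CatVII it was 16.4 CPM (15.3 to 17.6) in OSalive and 23.9 CPM (21.4 to 26.7) in OSapop. The AnaVI sorts stood from high to low as LOS, MOS and UOS, and UOS was below both others without overlap of the intervals. With each cell given the same weight they were at 40.1, 37.6 and 36.6 CPM, and the thinned shares of 29.2%, 21.9% and 18.02% overlapped, so the order rests on the summed counts. The CatVII log2 difference of 0.54 (0.35 to 0.73) became 0.18 for the mean over cells and -0.34 after thinning. It was 1.30 (1.02 to 1.57) within series 1, from 29.1 CPM in OSapop and 11.8 CPM in OSalive, and -0.14 (-0.45 to 0.15) within series 2. After thinning 12 of 86 OSapop cells (13.95%) and 14 OSalive cells (11.3%) had a count of Fadd. In each of these CatVII sorts 5 cells held at least 50% of the Fadd counts.

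Xiap encodes the inhibitor of apoptosis that binds caspase-9 and the executioner caspases (chromosome X, 41148481-41198541, plus strand). It was at 82.8 CPM in LOS, 96.9 CPM in MOS and 124.4 CPM in UOS. The Phago alive plates 1 and 2 had 39.5 CPM (28.8 to 52.8) and 7.49 CPM (1.55 to 21.9), the Phago apop plate 129.7 CPM (107.3 to 155.5) and the NonPhago apop plate 46.7 CPM (26.1 to 77.01). In CatVII OSalive was at 102.4 CPM (99.5 to 105.3) and OSapop at 105.1 CPM (99.6 to 110.7), with intervals that overlap. The log2 difference in CatVII was 0.04 (-0.05 to 0.12) and was -0.21 (-0.34 to -0.08) within series 1 and 0.31 (0.19 to 0.43) within series 2. Xiap had a count in 76.8% of OSalive cells and 71.7% of OSapop cells, and its highest cell held 6.30% and 7.31% of the counts, the lowest such share of the 8 genes in both sorts. After thinning, 47 OSalive cells (37.9%) and 37 of 86 OSapop cells (43.02%) had a count.

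The first comparison asked how cells sorted as apop differed from cells sorted as alive at CatVII. Summed over the whole sorts, Casp2, Casp8 and Fadd were higher in OSapop by log2 differences of 0.54 to 0.77, and Fas and Casp9 by 0.30 and 0.19. Xiap differed by 0.04, and Casp6 and Apaf1 were lower by -0.37 and -0.42. Within the series, Casp2 was higher and Casp6 lower in OSapop in both, and the other 6 genes lay on opposite sides of 0. The interval included 0 for Fas in series 1 and for Casp6 and Fadd in series 2. The intervals of the series 1 and series 2 differences did not overlap for Casp2, Casp8, Casp9, Apaf1, Fadd and Xiap. Of the 8 genes, 0 were at least 2-fold higher and 0 at least 2-fold lower, against 7.41% and 11.6% of the 11975 genes whose counts over both sorts reached 100. Within series 1 there were 2 higher (Casp8 and Fadd) and 2 lower (Casp9 and Apaf1), against 9.75% and 14.9% of 10945 genes, and within series 2 there were 2 higher (Casp2 and Casp9) and 0 lower, against 10.2% and 15.8% of 10822 genes. The median of the 8 was 0.24, beside a median of -0.03 over all genes compared, and 6 of the 8 lay above that median. The median of the 8 was -0.14 within series 1 and 0.45 within series 2. Immune markers summed to 20.005 CPM in OSalive and 31.8 CPM in OSapop, but 3 of the 5 were lower in OSapop and Cd74, in 7 cells, made up 22.5 CPM of its sum. Fibroblast markers summed to 754 and 910 CPM, with 4 of the 5 lower in OSapop and Col1a1 at 561 and 749 CPM. Markers of Sca1-positive upper follicle and epidermis summed to 34.9 and 6.40 CPM, with all 3 lower in OSapop, and melanocyte markers to 5.22 and 6.85 CPM, with Kit at 0 in both. The part of these cell types and of the number series in the differences was not tested.

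**Figure D2:**
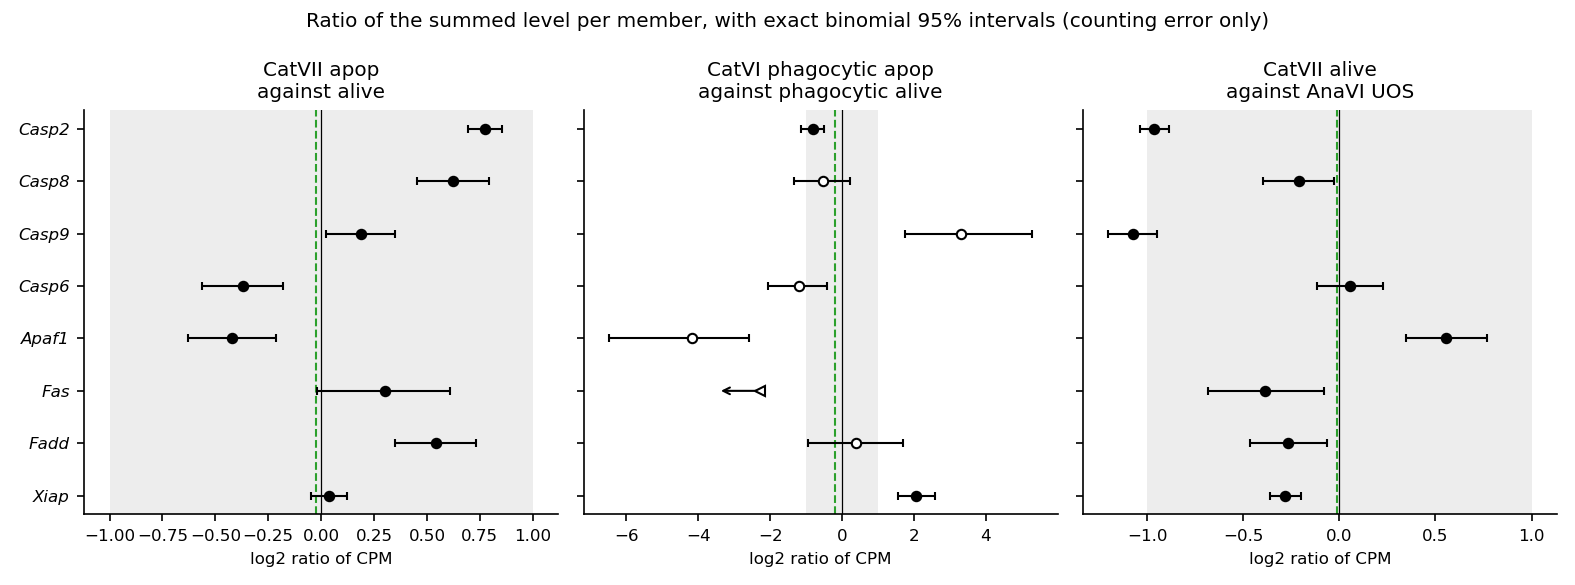
Log2 ratio of the summed CPM for each gene in the 3 comparisons (horizontal axes, each with its own scale), with exact binomial 95% intervals. Filled points have at least 100 counts over both groups and open points fewer. The triangle with an arrow is Fas with its 0 counts in the apop plate set to the floor of 3 counts. Grey marks less than 2-fold, and the dashed line is the median of all genes compared. In the left panel, which sums the whole CatVII sorts, all 8 genes lie within the grey band.

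**Figure D3:**
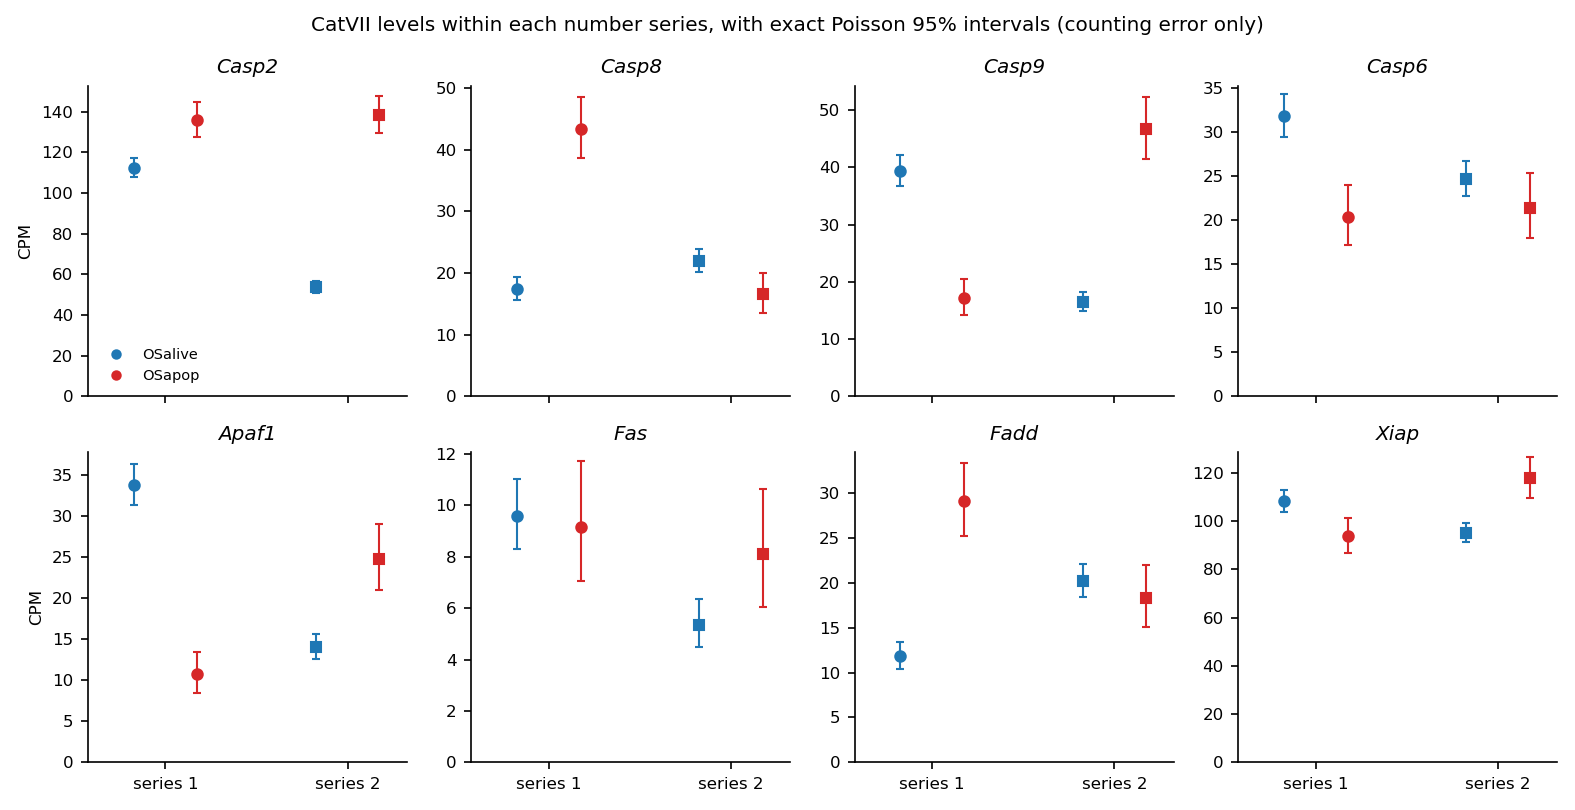
Summed level (CPM, vertical axes from 0, each with its own scale) of the 8 genes in OSalive (blue) and OSapop (red) within number series 1 (circles) and 2 (squares) of CatVII, with exact Poisson 95% intervals as bars. Casp2 is higher and Casp6 lower in OSapop in both series, with Casp6 bars that overlap in series 2. For Casp9 and Apaf1 the levels cross, from 39.4 against 17.2 CPM to 16.5 against 46.7 CPM for Casp9.

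At CatVI, the Phago apop plate 5 was compared with the Phago alive plates 1 and 2 as 1 group, with 15 cells against 28. Casp2 and Xiap had at least 100 counts over both groups. Xiap was at 129.7 CPM against 31.2 CPM, 4.16-fold higher in the apop plate with a log2 difference of 2.06 (1.56 to 2.57), and was above 97.97% of the 5072 genes compared. Casp2 was at 130.8 CPM against 231.04 CPM, a log2 difference of -0.82 (-1.13 to -0.52). Of these 2 genes 1 was at least 2-fold higher and 0 at least 2-fold lower, against 10.6% and 22.2% of all genes compared, whose median was -0.20. Xiap stayed above 0 with either alive plate alone, at 1.72 against plate 1 and 4.11 against plate 2. The alive side of Xiap rests on few counts, however. Plate 1 had 45, of which 1 of 19 cells held 51.1%, and plate 2 had 3, all in 1 of 9 cells. Casp2 was -1.04 against plate 1 and 0.07 against plate 2. The direction of Casp2 at CatVI therefore rests on plate 1, where 1 of 19 cells held 33.01% of its counts, and on plate 5 1 of 15 cells held 44.1%.

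The other 6 genes had fewer than 100 counts in the CatVI comparison. Casp9 had 23 counts in the apop plate, all in 2 cells, and 4 counts in the alive plates, a log2 difference of 3.30 (1.747 to 5.29). Apaf1 had 3 counts against 93, a difference of -4.18 (-6.49 to -2.59). Fas had 0 against 25, which was 4.88-fold lower with the 0 set to the floor of 3 counts per group. The interval of its log2 difference lay below -1.88. In each of these genes 1 or 2 cells held most of the counts on at least 1 side, a clustering that the intervals do not cover. Casp6 differed by -1.21 (-2.07 to -0.42), and the intervals of Casp8 (-1.34 to 0.22) and Fadd (-0.95 to 1.70) included 0. Alive plate 1 carried 247.2 CPM of endothelial markers, among them Pecam1 in 3 of 19 cells, and alive plate 2 carried 882 CPM of melanocyte markers, with Kit in 2 of 9 cells, whereas the apop plate 5 had 0 and 2.22 CPM of these lists. Mitochondrial counts made up 9.42% of the gene counts on plate 2, 3.30% on plate 1 and 3.92% on plate 5. The part of these differences in the values of the 8 genes was not tested.

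The third comparison set OSalive of CatVII against UOS of AnaVI, and it shares the OSalive cells with the first. Casp2 and Casp9 had the lowest ratios: Casp9 was at 27.4 CPM against 57.7 CPM, a log2 difference of -1.07 (-1.202 to -0.95), and Casp2 at 80.3 CPM against 156.7 CPM, a difference of -0.96 (-1.04 to -0.89). Apaf1 was higher in OSalive, at 23.3 CPM against 15.8 CPM, a difference of 0.56 (0.35 to 0.77). With OSalive of series 1 alone Casp9 was at -0.55, Casp2 at -0.48 and Apaf1 at 1.09, and with OSalive of series 2 alone they were at -1.80, -1.54 and -0.17. Casp2 and Casp9 were thus below the same UOS cells with either series, by sizes more than 2-fold apart. Apaf1 changed its sign, with a series 2 interval (-0.42 to 0.07) that includes 0. Fas (-0.39), Xiap (-0.28), Fadd (-0.27) and Casp8 (-0.21) were lower in OSalive, with intervals below 0. Of these, Xiap kept an interval below 0 with either series. Casp8 with series 2 was at -0.07 (-0.27 to 0.14), Fas with series 1 at 0.06 (-0.26 to 0.39) and Fadd with series 2 at 0.03 (-0.18 to 0.25), with intervals that include 0. The interval of Casp6 (-0.12 to 0.22) included 0. Of the 8 genes 0 were at least 2-fold higher and 1, Casp9, at least 2-fold lower, against 13.8% and 19.1% of the 12186 genes compared, and with TMM scaling Casp9 was at -0.99. With OSalive of series 1 alone 1, Apaf1, was at least 2-fold higher and 0 lower, against 13.7% and 20.2% of 11610 genes, and with that of series 2 alone 0 were higher and 2, Casp2 and Casp9, lower, against 12.9% and 22.1% of 11509 genes. The median of the 8 was -0.27 beside -0.01 for all genes. Per total of all gene rows every ratio was lower by 0.34, which put Casp6 at -0.29 and brought the median to -0.62. The median depth per cell was 355644 counts in OSalive and 88842.5 counts in UOS, and markers of Sca1-positive upper follicle and epidermis summed to 202.7 CPM in UOS against 34.9 CPM in OSalive. Melanocyte markers summed to 58.7 CPM in UOS and 5.22 CPM in OSalive, endothelial markers to 36.4 and 3.96 CPM and fibroblast markers to 1074 and 754 CPM. The part of these differences was not tested.

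At equal depth the median cell had counts of 2 of the 8 genes in LOS, MOS and UOS and of 1 in OSalive and OSapop. After thinning, the mean number of the 8 genes with a count was 2.21 ± 1.32 per cell (SD over 24 cells) in LOS, 1.69 ± 0.780 in MOS and 1.80 ± 1.205 in UOS. It was 1.30 ± 0.946 over the OSalive cells and 1.53 ± 1.124 over the 86 OSapop cells, and 24 and 13 of these cells had none of the 8. On the CatVI plates 1, 2, 5 and 6 the means were 1.44, 1.125, 1.4 and 1.46 genes. Both apoptosome genes, Apaf1 and Casp9, were counted in the same thinned cell in 4 of 86 OSapop, 1 OSalive and 3 UOS cells, and Fas, Fadd and Casp8 together in 0 OSapop, 0 OSalive and 1 UOS cells.

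**Figure D4:**
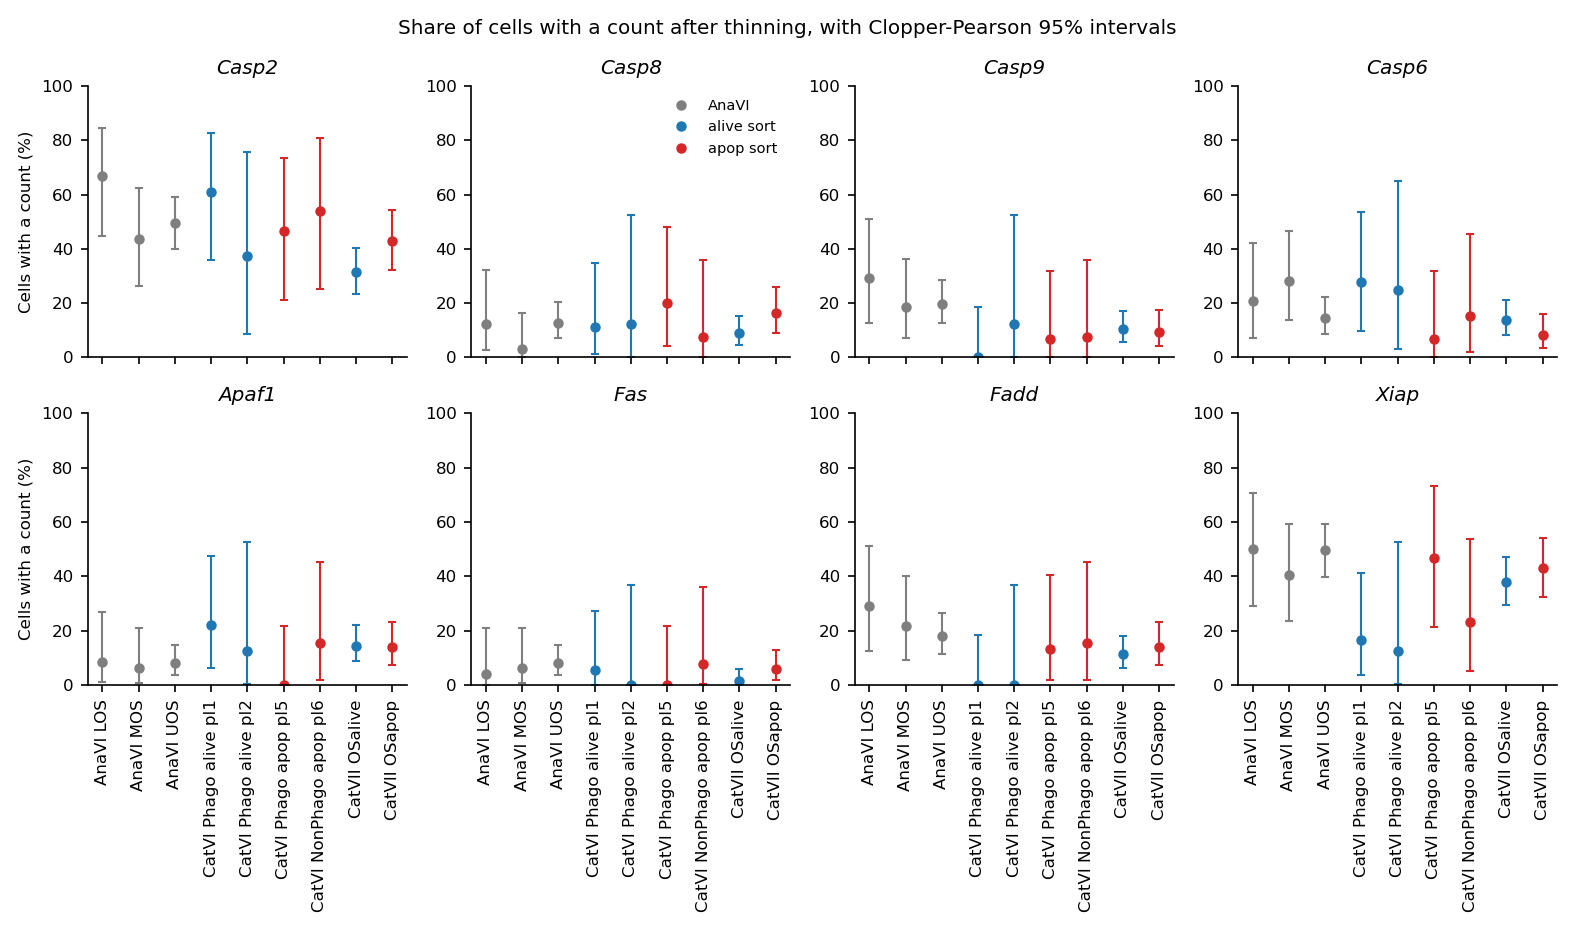
Share of cells with at least 1 count (%, vertical axes from 0 to 100) of each gene after thinning each cell to 10000 counts, in the 9 sorts (horizontal axis), with Clopper-Pearson 95% intervals. OSalive and OSapop overlap for all 8 genes, and Casp2 and Xiap have the highest shares in both.

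Another 36 genes of the same pathways were read in 6 lists, of which 26 could be compared between OSapop and OSalive. Of these, 0 were at least 2-fold higher and 2 at least 2-fold lower, beside 7.41% and 11.6% of all genes compared, with a median of -0.05. The lower ones were Cradd, which encodes the RAIDD adaptor of the PIDDosome, at 1.05 CPM in OSapop and 9.05 CPM in OSalive, and Dffb, which encodes the caspase-activated DNase, at 0.677 and 6.16 CPM. Their log2 differences were -3.10 (-3.99 to -2.34) and -3.18 (-4.33 to -2.24), with counts in 14 and 9 OSalive cells and in 2 OSapop cells each. Cradd was at -3.13 within series 1 and -3.29 within series 2, and Dffb was at 1.29 CPM in OSapop and 3.02 CPM in OSalive within series 1 and at 0 and 7.61 CPM within series 2. Pidd1, which encodes the other adaptor of the PIDDosome, differed by -0.15 (-0.43 to 0.12), with 0.39 within series 1 and -2.29 within series 2. Summed over the whole sorts, apoptosome and mitochondrial factors had a median of 0.71 over 5 genes compared, all above 0. Diablo, whose product displaces XIAP from caspases, was at 51.7 CPM in OSapop and 27.95 CPM in OSalive (0.89, 0.75 to 1.02). Cycs, which encodes cytochrome c, was at 11.4 and 6.35 CPM (0.85, 0.56 to 1.14). Diablo and Cycs were higher in OSapop within either series, Diablo by 0.69 and 1.122 and Cycs by 1.04 and 0.85. Htra2 was at 1.09 within series 1 and 0.45 (-0.25 to 1.11) within series 2. Aifm1 was at 1.28 within series 1 and -0.17 (-0.67 to 0.31) within series 2, and Bid at 0.30 and -0.20 (-0.45 to 0.05). These series 2 intervals all include 0.

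Death receptors, ligands and adaptors had a median of -0.20 over 8 of 14 genes compared: the TNF receptor gene Tnfrsf1a was at 354 CPM in OSapop and 390 CPM in OSalive, and Cflar, which encodes the inhibitor of caspase-8 activation FLIP, at 82.2 and 105.5 CPM. Cflar was lower in OSapop within both series, by -0.51 and -0.25, and Tnfrsf1a was at -0.36 and 0.15. The ligand genes Fasl and Tnf had 0 counts in both sorts. Of the inhibitors of apoptosis, Birc6 was at 657 and 615 CPM and Birc3 at 29.2 and 17.96 CPM, and Birc6 turned between the series, from 0.35 to -0.18, while Birc3 was at 1.65 and 0.15. The median of 4 genes compared was 0.40.

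**Figure D5:**
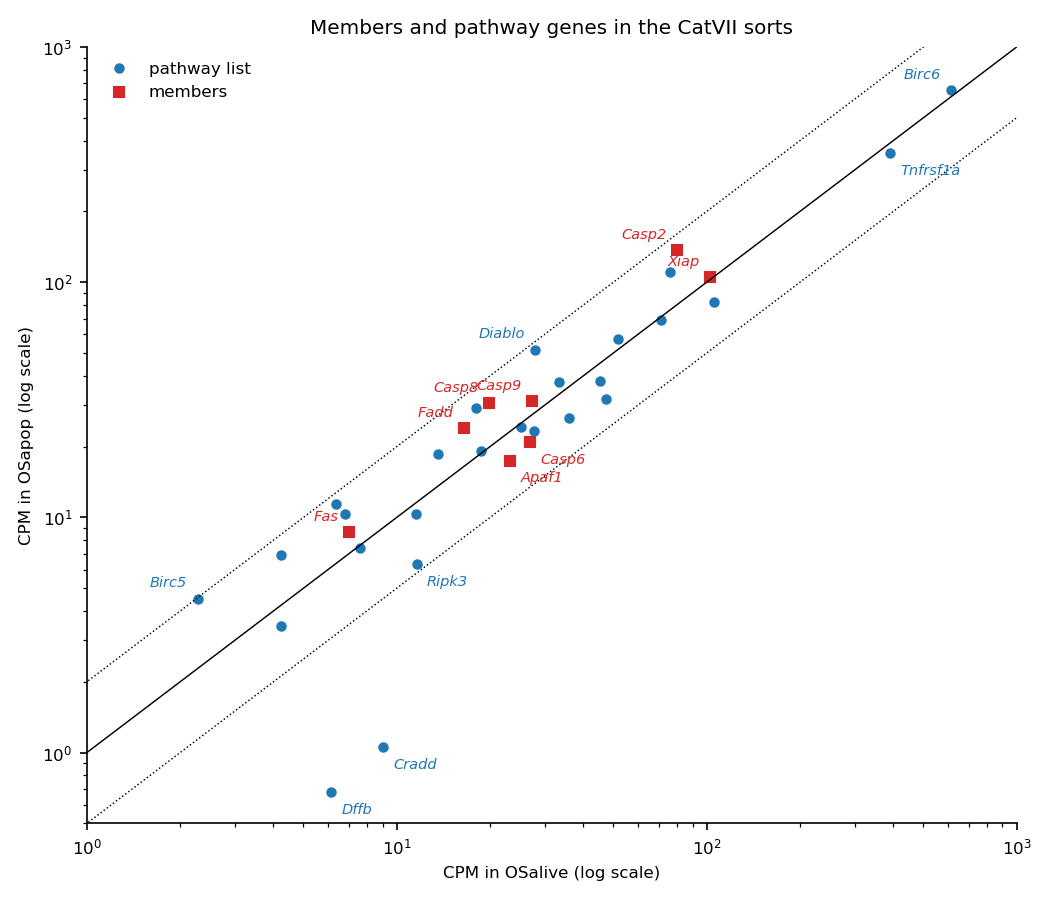
CPM in OSapop (vertical axis, log scale) against CPM in OSalive (horizontal axis, log scale) for the 8 genes (red squares) and the genes of the 6 pathway lists (blue circles), where genes at the lowest levels lie outside the plot. The solid line marks equal levels and the dotted lines 2-fold, and of the genes with at least 100 counts Cradd and Dffb lie outside the lower dotted line.

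In the CatVI comparison 6 of the 36 list genes had at least 100 counts. Tnfrsf21, which encodes death receptor 6, was at least 2-fold lower in the apop plate, at 17.7 CPM against 133.04 CPM (-2.91, -3.74 to -2.17), and 0 were higher, beside 22.2% and 10.6% of all genes compared. Its level in the alive plates was 68.4 CPM in plate 1 and 317 CPM in plate 2, so the plates of the alive side differed from each other as well. Diablo had 103.1 CPM against 52.6 CPM (0.97, 0.53 to 1.42). Between OSalive and UOS, 27 list genes were compared, of which 3 were at least 2-fold higher and 4 lower, beside 13.8% and 19.1% of all genes compared. All 7 kept their direction with OSalive of either series alone. These genes were picked from the sum that holds both series, and both were set against the same UOS cells, so this is no separate support. The share of all genes that kept their direction is not given. Ripk3, a kinase gene of necroptosis, was higher at 11.6 against 1.624 CPM, Bid, which links caspase-8 to mitochondria, at 33.3 against 6.71 CPM, and Dffb at 6.16 against 0.636 CPM. Cycs was lower at 6.35 against 55.2 CPM, Htra2 and Aifm1, which encode mitochondrial proteins released in apoptosis, at 4.24 against 19.8 CPM and 6.80 against 22.5 CPM, and Tradd, an adaptor gene of the TNF receptor, at 4.24 against 21.5 CPM.

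The genes whose levels followed each member most closely over the 9 sorts were named by Pearson's r of log2(CPM + 1) among 8892 other genes (8893 for Fas) detected in at least 75 cells. For Xiap these were Gorasp1 and Cltb (r = 0.99 each), for Fas Repin1 and Mogs (0.98 each), for Fadd Nop9 (0.98) and Cse1l (0.97) and for Casp9 Cryab and Cebpzos (0.97 each). For Casp6 they were Spns1 (0.94) and Mrpl19 (0.93), for Apaf1 Sdad1 (0.94) and Gigyf2 (0.92), for Casp2 Nutf2-ps1 (0.92) and Mtfr1 (0.91) and for Casp8 Pcmtd2 (0.92) and Ufl1 (0.90). These are the highest of all values over 9 points, in which the sparse plates weigh as much as the deep sorts. Among the 8 genes themselves, r was highest for Casp9 with Xiap (0.85), Casp9 with Fadd (0.78) and Fadd with Xiap (0.72), and lowest for Casp8 with Fadd (-0.56). These correlations are descriptions over 9 sorts that differ in depth, stage and plate at once.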

How the data were processed

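The authors trimmed the reads, aligned them with STAR 2.6 to mm39, quantified them with Salmon 1.4.0 and summed them per gene with tximport in R 3.6.1, and the deposited table holds these estimated counts of 1036 cells without normalization. Its 92 spike-in rows were left out and counts were rounded to whole numbers. Ensembl identifiers were matched to GENCODE M39 on GRCm39, where 93.3% of gene rows had a match. Levels were scaled to nuclear protein-coding genes, since rows without a match took 71.3% to 80.7% of the counts per sort, 1 of them alone 56.3% to 66.5%. Nextera libraries mark no strand.

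Passing cells numbered 39 of 93 in LOS, 38 of 72 in MOS, 112 of 134 in UOS, 125 of 156 in OSalive and 92 of 141 in OSapop; after thinning 24, 32, 111, 124 and 86 remained. A ratio is that of summed CPM, with its exact binomial interval. A gene was compared where its counts over both groups reached 100, a group at 0 was set to 3 counts, and no ratio was formed with at most 3 counts in both. The genes named are the 8 members, list genes past 2-fold at CatVII with others of the lists as context, and 2 genes most alike per member. The members and lists were chosen with earlier results of these data known. The computation of ratios and intervals was checked on simulated counts with counting error alone, which tells nothing of the spread between cells. Sums, intervals and plots used Python 3.11.15, numpy 2.4.6, pandas 2.3.3, scipy 1.17.1 and matplotlib 3.10.9, and TMM factors used edgeR 4.0.16 in R 4.3.3. Left out were 1 cell whose labels name conflicting stages, 1 labelled cell without a column, and the label table, which holds no measurement. The CatVII cells were also split by the series of sample numbers in their titles, within which a well and a number occur once and numbers follow the wells. Other alternatives concerned the scaling, the weight and depth of cells, the filters, the plates and the cell with the most counts.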

Additional observations from a re-analysis of the deposited data

Results flagged for a closer look

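Casp2 lay on opposite sides of 0 in the apop against alive comparisons of the 2 catagen stages. Its log2 ratio was 0.77 in OSapop against OSalive at CatVII and -0.82 in the Phago apop plate against the Phago alive plates at CatVI. Within the number series of CatVII it was 0.28 and 1.36. Without replicates the difference between the stages was not tested. Against Phago alive plate 2 alone the CatVI ratio was 0.07, and against plate 1 alone it was -1.04.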

How the results depend on the processing

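No paired analysis was possible because the labels name no replicate samples, and the 2 number series of CatVII, a split chosen after seeing the data, are not named as such. The median of the 8 genes at CatVII kept its sign in 9 of 10 alternatives, with 0.45 within series 2 and -0.14 within series 1. In place of 0 genes of the 8 at least 2-fold higher or lower there were 2 higher and 2 lower within series 1 and 2 higher within series 2. With no minimum count, 1386 genes were at least 2-fold higher at CatVII in place of 887, and 1753 higher and 2664 lower at CatVI in place of 539 and 1124. At CatVI the median of the 8, -0.68 as reported, was 0.067 against plate 2 alone and -0.044 without the cell with the most counts in each group, and 622 genes were lower against plate 2 alone. Of the 8 genes, 1 was at least 2-fold lower against plate 1 alone and 1 without those cells, in place of 0. In OSalive against UOS the median, -0.27 as reported, was -0.62 per total of all gene rows and -0.79 after thinning. In place of 1 gene at least 2-fold lower there were 2 per total of all gene rows, 2 for the mean over cells and 0 with TMM scaling, and after thinning 1 was at least 2-fold higher in place of 0. With OSalive of series 1 alone 1 was higher and 0 lower, and with series 2 alone 2 were lower. The cause of these changes was not tested. Depth limited the CatVI plates most, where 3 counts were 2.63 to 9.34 CPM.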

Other observations

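Cells on the NonPhago alive plates 3 and 4, of which none passed the filter, held 778 and 1993 nuclear coding counts in all, and 0 counts of each of the 8 genes. The cell whose labels give conflicting stages had 1 count of Fas and 2 counts of Xiap among 9455 nuclear coding counts, and 0 counts of the other 6 genes.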
